A study of Mus musculus with 14 samples.

Results

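The 43 genes described here encode the machinery that copies DNA and the factors that open S phase, the stretch of the cell cycle in which the genome is duplicated. They were chosen by gene symbol from a fixed list, which was drawn up with earlier results of these data known. All 43 were found among the 54532 gene IDs of the count table. All 43 also passed the filter on low counts, which left 15876 genes to test. Polyadenylated RNA of mouse ventricles, collected 1 week after surgery, had been sequenced in 14 libraries, each taken as 1 mouse because the study's design text gives equal numbers of mice. The groups were wild type mice with sham surgery (n = 2) or with transverse aortic constriction (TAC, n = 6), and CCL24 knockout mice, which lack the gene of the chemokine CCL24, with sham surgery (n = 2) or TAC (n = 4). TAC ties a ligature around the aortic arch and thereby loads the left ventricle with pressure. The sources used here do not give the strain, age or sex of the mice or how the knockout was made.

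A genome is copied from many origins. In G1 the origin recognition complex, CDC6 and CDT1 load the ring-shaped MCM helicase on DNA, and at the start of S phase CDC45, the GINS complex and MCM10 turn it into an active helicase. Primase and DNA polymerases then make the new strands, held on DNA by the sliding clamp PCNA, while ribonucleotide reductase, thymidylate synthase and thymidine kinase supply the building blocks and chromatin assembly factors repack the copies. Transcription of most of these genes is under E2F factors, which cyclin E and its kinase release from the retinoblastoma protein. In the adult heart most cardiomyocytes have left the cell cycle, and much of the DNA synthesis after pressure overload takes place in other cells, such as fibroblasts, endothelial cells and immune cells.

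Total counts were 17072262 to 33123052 per library, so that 3 counts stood for 0.0906 to 0.176 CPM, the library-scaled unit (counts over library size, with TMM factors) used below. Ccl24 itself had 3 to 8 counts in the 6 knockout libraries and 56 to 105 in 7 of the 8 wild type libraries. The remaining library, labelled wild type TAC 1, had 3 counts, which goes against its label. A second library, wild type TAC 7, stood apart in the genes described here: it was the lowest of the 6 wild type TAC libraries in 39 of the 43 genes. Total counts of called genes among the 43 are given with and without these libraries. Counts for role groups, for calls shared by both genotypes and for other gene lists are given with all libraries kept. In whole ventricles, fewer cells of a type cannot be told apart from less RNA per cell.

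After TAC the replication genes were higher in both genotypes. In wild type mice 19 of the 43 passed an adjusted p of 0.05 (edgeR's quasi-likelihood test with Benjamini-Hochberg adjustment over all genes tested), all 19 higher and none lower, against 6.36% of all genes tested called higher. Their median log2 fold change was 0.84, against 0.01 over all genes, and 42 of the 43 were above 0. In knockout mice 20 of 43 passed, again all higher, against 2.36% of all genes. There the median was 1.04, against -0.01 over all genes, and 43 of 43 were above 0. The log2 fold changes of the genes ran from -0.16 for Gins1 to 3.64 for Pclaf in wild type mice, and from 0.14 for Rfc4 to 3.0 for Mcm10 in knockout mice. These calls rested on few sham libraries. Most or all were lost when 1 sham library of the same genotype was left out, as were most or all calls over all genes. That fit leaves 1 sham library in its group, so the median is given below. In knockout mice 7 of 43 passed without knockout TAC 2, against 0.96% of all genes. Without wild type TAC 1, 18 of 43 passed in wild type mice, against 9.25% of all genes, with a median of 0.70. Leaving out wild type TAC 7 gave 27 of 43, against 6.16%, with a median of 0.89. The median log2 fold change of the 43 genes in wild type mice was 0.90 and 0.73 without wild type sham 1 and 2. In knockout mice it was 0.90, 1.15 and 0.91 without knockout sham 1, knockout sham 2 and knockout TAC 2.

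**Figure D1:**
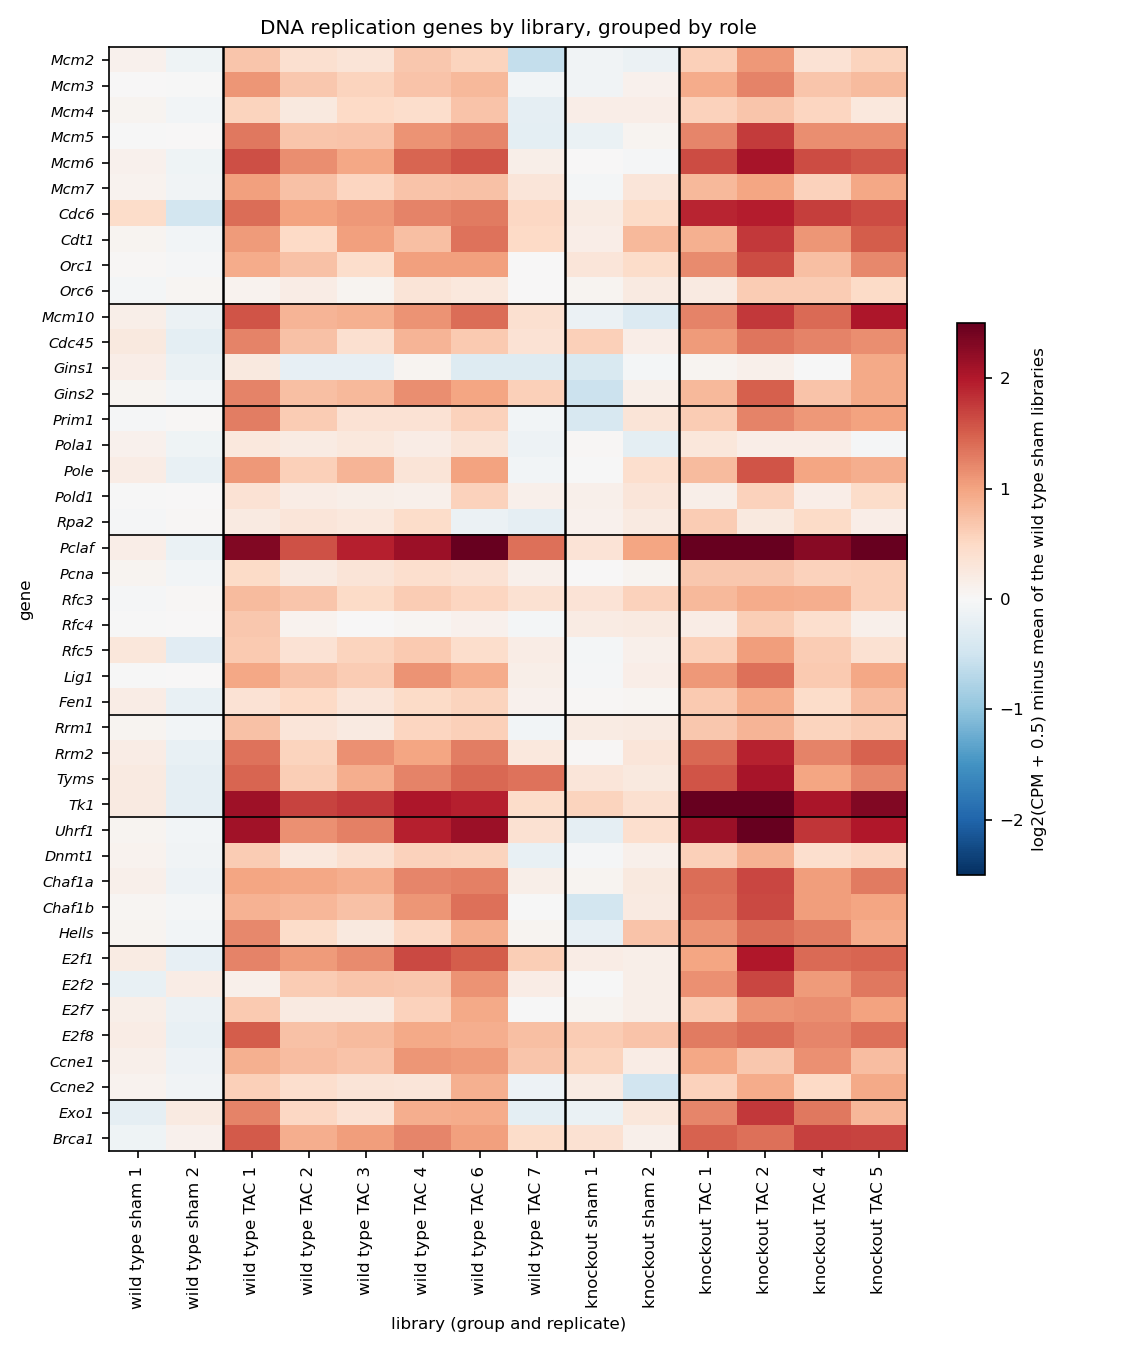
Difference of log2(CPM + 0.5) from the mean of the wild type sham libraries for each of the 43 genes (vertical axis, grouped by role, in the order of the text) in each of the 14 libraries (horizontal axis). The colour scale ends at 2.5, and Pclaf, Tk1 and Uhrf1 go past it among the TAC libraries. The TAC libraries are red in most genes, except wild type TAC 7, which is close to the sham libraries.

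The 2 TAC comparisons share no library, but all 14 libraries were fitted together, with 1 estimate of the spread per gene. Their calls are therefore not independent. In knockout mice 22 of 43 passed without wild type TAC 1, against 2.87% of all genes. Without wild type TAC 7, 29 of 43 passed there, against 4.83%. A total of 15 genes passed in both, against 1.52% of all genes tested called higher in both: Pclaf, Pcna, Mcm6, Mcm7, Mcm10, Cdc6, Gins2, Rrm2, Tyms, Tk1, Lig1, Uhrf1, Chaf1a, E2f1 and Brca1. Another 5 passed in knockout mice alone (Mcm3, Mcm5, Fen1, Chaf1b and E2f2) and 4 in wild type mice alone (Cdt1, Rfc3, E2f8 and Ccne1), and 19 passed in neither. The genotype by surgery interaction, which tests the difference between the 2 responses itself, called 0 of the 43 (0% of all genes tested), and 0 had an unadjusted p under 0.05. The interaction again called 0 without wild type TAC 1, with 2 at an unadjusted p under 0.05, and without wild type TAC 7 it called 0, with 1. DESeq2 and limma voom also called 0. The smallest unadjusted p of the interaction was 0.0668, for Pcna. Across the 43 genes the log2 fold changes of both genotypes correlated with r = 0.84 (Pearson) and rho = 0.87 (Spearman), against r = 0.64 over all genes tested. Genes of a library are not independent replicates, and this is a description. The log2 fold change was the larger in knockout mice for 34 of the 43.

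**Figure D2:**
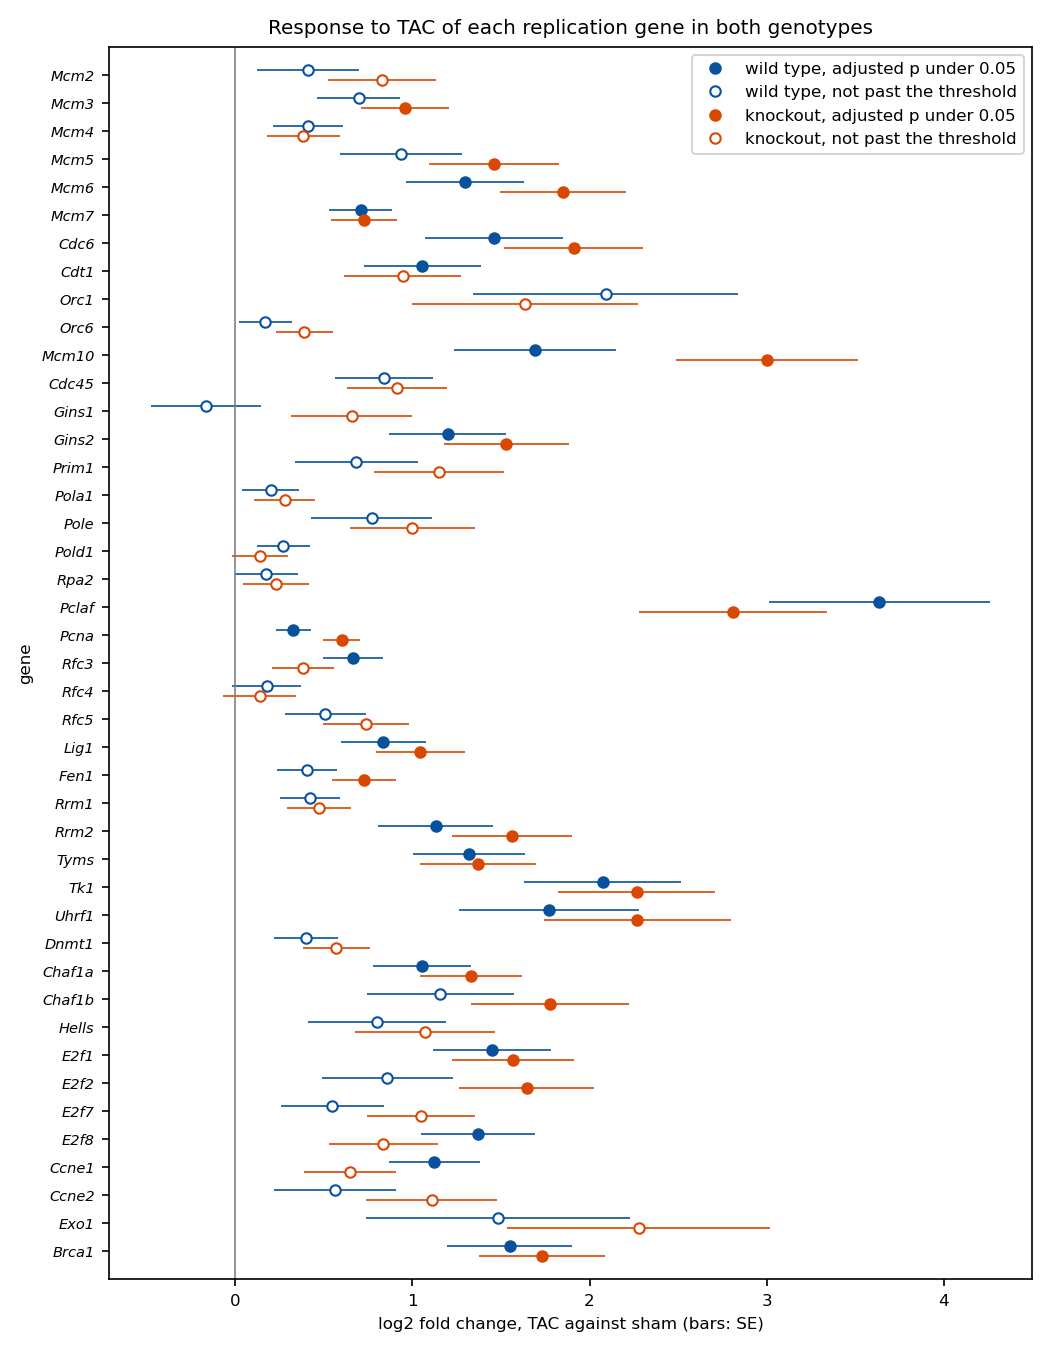
Log2 fold change of TAC against sham (horizontal axis, bars are the SE) for each of the 43 genes (vertical axis) in wild type (blue) and knockout (orange) mice. Filled points passed an adjusted p of 0.05: 19 in wild type and 20 in knockout mice.

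E2F sites in the promoters of these genes are the textbook link between them, so the promoter windows of RefSeq (mouse build GRCm38.p6, 250 bases before to 50 after each start) were searched on both strands for TTTGGCGC, TTTCGCGC, TTTCCCGC and TTTGCCGC. The table held 37 of the 43 genes; Mcm4, Gins1, Gins2, Pole, Ccne2 and Exo1 were not among them. A match was present in 17 of 37 genes, 45.9%, against 3.29% of 17492 protein-coding genes, 29.4% of 51 other replication genes and 5.88% of 34 mitosis genes. The stretches of 4 genes that passed in at least 1 TAC comparison are printed as examples of such a match lying wholly before the RefSeq start and outside annotated exons, 5′ to 3′ on the gene's strand with the matches in capitals. They are Cdc6 at chr11:98907983-98908050 (plus strand), Mcm5 at chr8:75109326-75109397 (plus), Mcm6 at chr1:128359715-128359845 (minus) and Uhrf1 at chr17:56304098-56304165 (plus).
Cdc6: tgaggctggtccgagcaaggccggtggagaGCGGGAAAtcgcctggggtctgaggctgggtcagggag
Mcm5: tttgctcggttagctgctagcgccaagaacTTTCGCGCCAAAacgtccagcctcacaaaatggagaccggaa
Mcm6: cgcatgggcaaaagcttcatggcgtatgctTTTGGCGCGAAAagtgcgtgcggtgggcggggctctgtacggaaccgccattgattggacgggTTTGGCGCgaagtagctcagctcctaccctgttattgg
Uhrf1: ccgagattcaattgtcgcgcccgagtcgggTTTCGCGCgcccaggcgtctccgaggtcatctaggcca
In Mcm5 the capitals join 2 overlapping matches on opposite strands, and Mcm6 holds 3 matches, of which 2 overlap in the same way. The Mcm5 and Mcm6 stretches lie outside any gene of GENCODE M21, and those of Cdc6 and Uhrf1 lie within the extent of their own gene but in no exon.

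The other motif of cell cycle promoters, the cell cycle genes homology region (CHR, searched as TTTGAA and TTCGAA), was matched in 21.6% of the replication genes, close to the 20.2% of protein-coding genes, and in 79.4% of the mitosis genes. A CCAAT box was matched in 64.9% of the replication genes, 76.5% of the mitosis genes and 42.3% of protein-coding genes. The responses of replication genes with and without an E2F match lay close together. The 17 genes with a match had a median log2 fold change after TAC of 0.84 in wild type and 1.05 in knockout mice, and 8 and 9 of them passed. For the 20 genes without a match the medians were 0.95 and 0.87, and 10 and 10 passed. A match is a run of letters and not a measured binding site.

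**Figure D3:**
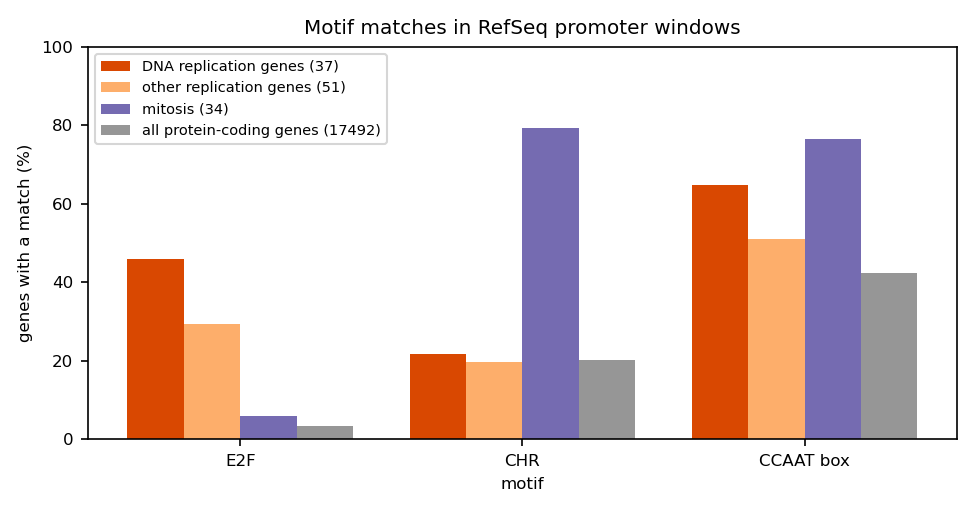
Share of genes (vertical axis, %) whose RefSeq promoter windows hold a match to each motif (horizontal axis), for the replication genes, other replication genes, mitosis genes and all protein-coding genes, with the number of genes in the legend. E2F matches stand out in the replication genes (45.9%) and CHR matches in the mitosis genes (79.4%).

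Of the 10 genes of origin licensing and helicase loading, 4 passed in wild type and 5 in knockout mice. Mcm6, a subunit of the helicase ring, lay at 5.12 and 4.31 CPM in the wild type sham libraries and at 5.27, 12.4 and 15.4 CPM (lowest, median and highest) in the 6 wild type TAC libraries. In knockout mice it lay at 4.73 and 4.60 CPM after sham and at 15.7, 21.2, 15.5 and 14.7 CPM after TAC. The groups did not overlap in either genotype, although the lowest wild type TAC library was close to the sham level. The log2 fold change was 1.30 (SE 0.33, adjusted p = 0.026) in wild type and 1.85 (SE 0.35, adjusted p = 0.013) in knockout mice. Cdc6, the loader of the ring, was at 1.02 and 0.304 CPM in wild type sham, 1.08, 1.97 and 2.43 CPM in wild type TAC, 0.771 and 1.03 CPM in knockout sham and 3.64, 3.81, 3.18 and 2.93 CPM in knockout TAC. Its log2 fold change was 1.46 (SE 0.39, adjusted p = 0.027) in wild type and 1.91 (SE 0.39, adjusted p = 0.015) in knockout mice, with no overlap of TAC and sham in either.

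The 6 MCM subunits of the ring did not move by equal amounts. Mcm7 was at 10.3 and 8.98 CPM in wild type sham, 11.9, 16.2 and 20.1 CPM in wild type TAC, 9.25 and 12 CPM in knockout sham and 17.2, 19.6, 14.5 and 19.2 CPM in knockout TAC, and passed in both genotypes (log2 fold changes of 0.71, SE 0.18, adjusted p = 0.023, and 0.73, SE 0.19, adjusted p = 0.039). Mcm5 was at 5.97 and 6.09 CPM in wild type sham against 5.03, 11.9 and 15.8 CPM in wild type TAC, and at 5.34 and 6.37 CPM in knockout sham against 14.8, 21.3, 14.1 and 14.2 CPM in knockout TAC. It passed in knockout mice (1.46, adjusted p = 0.044) but not in wild type mice (0.93, adjusted p = 0.091), where wild type TAC 7 lay below both sham libraries. Mcm3 likewise had log2 fold changes of 0.70 (adjusted p = 0.063) in wild type and 0.96 (adjusted p = 0.043) in knockout mice. Mcm2 (0.41 and 0.83) and Mcm4 (0.41 and 0.38) passed in neither. Without wild type TAC 7, Mcm3, Mcm4 and Mcm5 passed in wild type mice as well.

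Among the other licensing factors, Cdt1, the partner of CDC6 in loading, was at 1.92 and 1.73 CPM in wild type sham, 2.76, 3.81 and 5.44 CPM in wild type TAC, 2.11 and 3.57 CPM in knockout sham and 3.82, 7.45, 4.46 and 6.15 CPM in knockout TAC. It passed in wild type mice (log2 fold change 1.06, SE 0.33, adjusted p = 0.048) and not in knockout mice (0.94, SE 0.33, adjusted p = 0.11). The knockout sham libraries were both above the wild type sham libraries, but this difference did not pass (0.64, adjusted p = 0.58). Orc1, the largest subunit of the origin recognition complex, was near the limit of detection in wild type sham, with 3 and 2 counts. Its level there was 0.128 and 0.101 CPM, against 0.12, 0.591 and 0.756 CPM in wild type TAC, and it passed in neither genotype. Orc6, the smallest subunit, had log2 fold changes of 0.17 and 0.39 and passed in neither. The 2 subunits also differed in sham level per exon length: Orc6 had 2.41 FPKM and Orc1 0.033 FPKM in wild type sham.

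Helicase activation is represented by 4 genes, of which 2 passed in each genotype, Mcm10 and Gins2. Mcm10, which binds the loaded ring and is needed to start unwinding, was at 0.554 and 0.355 CPM in wild type sham, 0.749, 1.41 and 2.33 CPM in wild type TAC, 0.360 and 0.245 CPM in knockout sham and 1.75, 2.73, 2.03 and 3.33 CPM in knockout TAC. All TAC libraries were above all sham libraries of their genotype. The log2 fold change was 1.69 (SE 0.46, adjusted p = 0.028) in wild type and 3.0 (SE 0.52, adjusted p = 0.006) in knockout mice, and the interaction did not pass (1.31, SE 0.70, unadjusted p = 0.0812). Gins2 was at 1.28 and 1.12 CPM in wild type sham, 2.07, 2.69 and 3.53 CPM in wild type TAC, 0.668 and 1.37 CPM in knockout sham and 2.47, 4.27, 2.30 and 2.76 CPM in knockout TAC. Its log2 fold changes were 1.2 (SE 0.33, adjusted p = 0.03) and 1.53 (SE 0.35, adjusted p = 0.025). Exons of Gse1 cover 67.3% of the exon bases of Gins2 on the opposite strand, and the sources used here do not say whether counting used strand, so reads of the 2 genes may not be told apart.

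The other GINS subunit, Gins1, was the 1 member with a log2 fold change below 0 in wild type mice (-0.16, SE 0.31, adjusted p = 0.75). It lay at 2.26 and 1.67 CPM in wild type sham and at 1.47, 1.62 and 2.38 CPM in wild type TAC. In knockout TAC 3 libraries lay between 1.94 and 2.17 CPM and knockout TAC 5 at 4.2 CPM, against 1.39 and 1.86 CPM in knockout sham (0.66, SE 0.34, adjusted p = 0.29). Cdc45, the helicase partner of GINS, had log2 fold changes of 0.84 (adjusted p = 0.057) and 0.91 (adjusted p = 0.076) with no overlap between TAC and sham in either genotype. It passed in wild type mice when wild type TAC 7 was left out.

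No gene of the polymerase group passed in either genotype: 0 of 5 for Prim1, Pola1, Pole, Pold1 and Rpa2 (1 in wild type and 2 in knockout mice had an unadjusted p under 0.05). Prim1, the catalytic subunit of primase, was at 2.05 and 2.18 CPM in wild type sham, 2.01, 3.13 and 5.86 CPM in wild type TAC, 1.49 and 2.79 CPM in knockout sham and 3.55, 5.67, 5.04 and 4.77 CPM in knockout TAC. TAC and sham overlapped in wild type mice and not in knockout mice, with log2 fold changes of 0.68 (SE 0.35, adjusted p = 0.19) and 1.15 (SE 0.37, adjusted p = 0.085). Pole, the catalytic subunit of the leading strand polymerase, had 2.64 and 1.93 CPM in wild type sham, 2.13, 4.09 and 5.34 CPM in wild type TAC, 2.26 and 3.18 CPM in knockout sham and 4.27, 7.77, 4.95 and 4.71 CPM in knockout TAC. Its log2 fold changes were 0.77 (SE 0.34, adjusted p = 0.14) and 1.00 (SE 0.35, adjusted p = 0.12). DESeq2 called Prim1 and Pole in knockout mice, and limma voom called Pole in wild type mice and Prim1 in knockout mice.

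The other genes of this group had smaller differences. Pola1, the catalytic subunit of the polymerase that extends primers, had log2 fold changes of 0.20 and 0.28. Pold1, the catalytic subunit of the lagging strand polymerase, had 0.27 and 0.14, and Rpa2, a subunit of the protein that coats single-stranded DNA, had 0.18 and 0.23. Rpa2 and Pold1 were among the 6 genes with the highest level per exon length in wild type sham, at 3.87 and 2.43 FPKM.

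The clamp and lagging strand group held the gene with the largest response in wild type mice and also the gene with the highest level. Pclaf, a small protein that binds the clamp, had 6 and 2 counts in wild type sham, or 0.256 and 0.101 CPM, and 1.26, 2.27 and 4.06 CPM in wild type TAC. In knockout mice it lay at 0.360 and 0.832 CPM after sham and 4.31, 6.09, 2.78 and 3.68 CPM after TAC. TAC and sham libraries did not overlap in either genotype. The log2 fold change was 3.64 (SE 0.63, adjusted p = 0.0068) in wild type and 2.81 (SE 0.53, adjusted p = 0.0099) in knockout mice. The wild type value rests on the few sham counts.

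Pcna, the clamp itself, had the highest level per exon length of the 43 genes in wild type sham, 12.3 ± 0.94 FPKM (SD, n = 2), with Rfc4 next at 3.95 ± 0.0342 FPKM. Its levels were 31.1 and 27.9 CPM in wild type sham, 32.1, 37.6 and 41.2 CPM in wild type TAC, 29.7 and 30.7 CPM in knockout sham and 47.0, 47.3, 44.2 and 44.6 CPM in knockout TAC. All 4 knockout TAC libraries lay above all 6 wild type TAC libraries, and these above all sham libraries. The log2 fold changes after TAC were the smallest that passed in each genotype, 0.33 (SE 0.10, adjusted p = 0.039) in wild type and 0.60 (SE 0.10, adjusted p = 0.006) in knockout mice. The pseudogene Pcna-ps2 had 1 to 7 counts per library, against 550 to 1352 for Pcna.

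Lig1, which seals the fragments of the lagging strand, was at 5.29 and 5.43 CPM in wild type sham, 5.99, 9.94 and 12.2 CPM in wild type TAC, 5.24 and 6.07 CPM in knockout sham and 12, 14.8, 8.75 and 11 CPM in knockout TAC, and passed in both genotypes (0.84, SE 0.24, adjusted p = 0.036, and 1.04, SE 0.25, adjusted p = 0.03). Fen1, the nuclease that trims those fragments, was at 6.40 and 4.82 CPM in wild type sham, 6.05, 7.60 and 8.41 CPM in wild type TAC, 5.65 and 5.78 CPM in knockout sham and 9.03, 11.1, 7.82 and 9.88 CPM in knockout TAC. It passed in knockout mice alone (0.40, adjusted p = 0.12, in wild type and 0.73, adjusted p = 0.034, in knockout). An antisense gene covers 78.8% of the exon bases of Fen1, so its reads are uncertain. The clamp loader subunit Rfc3 was at 3.28 and 3.4 CPM in wild type sham, 4.52, 5.28 and 6.15 CPM in wild type TAC, 4.37 and 5.24 CPM in knockout sham and 6.24, 6.79, 6.67 and 5.29 CPM in knockout TAC. It passed in wild type mice alone (0.66, SE 0.17, adjusted p = 0.023, against 0.38, SE 0.17, adjusted p = 0.22). Its knockout sham libraries lay above the wild type sham libraries, but this difference did not pass (0.52, adjusted p = 0.34). The loader subunits Rfc4 (0.18 and 0.14) and Rfc5 (0.51 and 0.74) passed in neither.

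In the nucleotide supply group 3 of 4 genes passed in each genotype. Tk1, the thymidine kinase of S phase, lay at 1.49 and 0.964 CPM in wild type sham and at 1.86, 5.70 and 6.91 CPM in wild type TAC. In knockout mice it lay at 2.00 and 1.76 CPM after sham and 9.66, 12, 6.54 and 7.99 CPM after TAC. Wild type TAC 7 held the low value of 1.86 CPM, and the other 5 wild type TAC libraries lay above all sham libraries. The log2 fold change was 2.07 (SE 0.44, adjusted p = 0.015) in wild type and 2.27 (SE 0.44, adjusted p = 0.013) in knockout mice. Tyms, which makes thymidylate, was at 3.03 and 2.08 CPM in wild type sham, 4.15, 6.95 and 7.72 CPM in wild type TAC, 3.24 and 3.09 CPM in knockout sham and 8.45, 12.1, 5.44 and 6.55 CPM in knockout TAC (1.32, SE 0.32, adjusted p = 0.019, and 1.37, SE 0.33, adjusted p = 0.028).

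The subunits of ribonucleotide reductase, which makes deoxynucleotides, differed in their call. Rrm2, the subunit whose level limits the enzyme outside S phase, was at 2.18 and 1.57 CPM in wild type sham, 2.34, 4.44 and 5.57 CPM in wild type TAC, 1.90 and 2.40 CPM in knockout sham and 5.88, 8.39, 5.04 and 6.03 CPM in knockout TAC. It passed in both genotypes (1.13, SE 0.33, adjusted p = 0.037, and 1.56, SE 0.34, adjusted p = 0.019). Rrm1, the large subunit, had log2 fold changes of 0.42 (adjusted p = 0.11) and 0.47 (adjusted p = 0.14). Rrm2b, the p53-responsive form of the small subunit and one of the other replication genes, fell in both genotypes (-0.42, SE 0.11, adjusted p = 0.026, and -0.50, SE 0.12, adjusted p = 0.027).

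**Figure D4:**
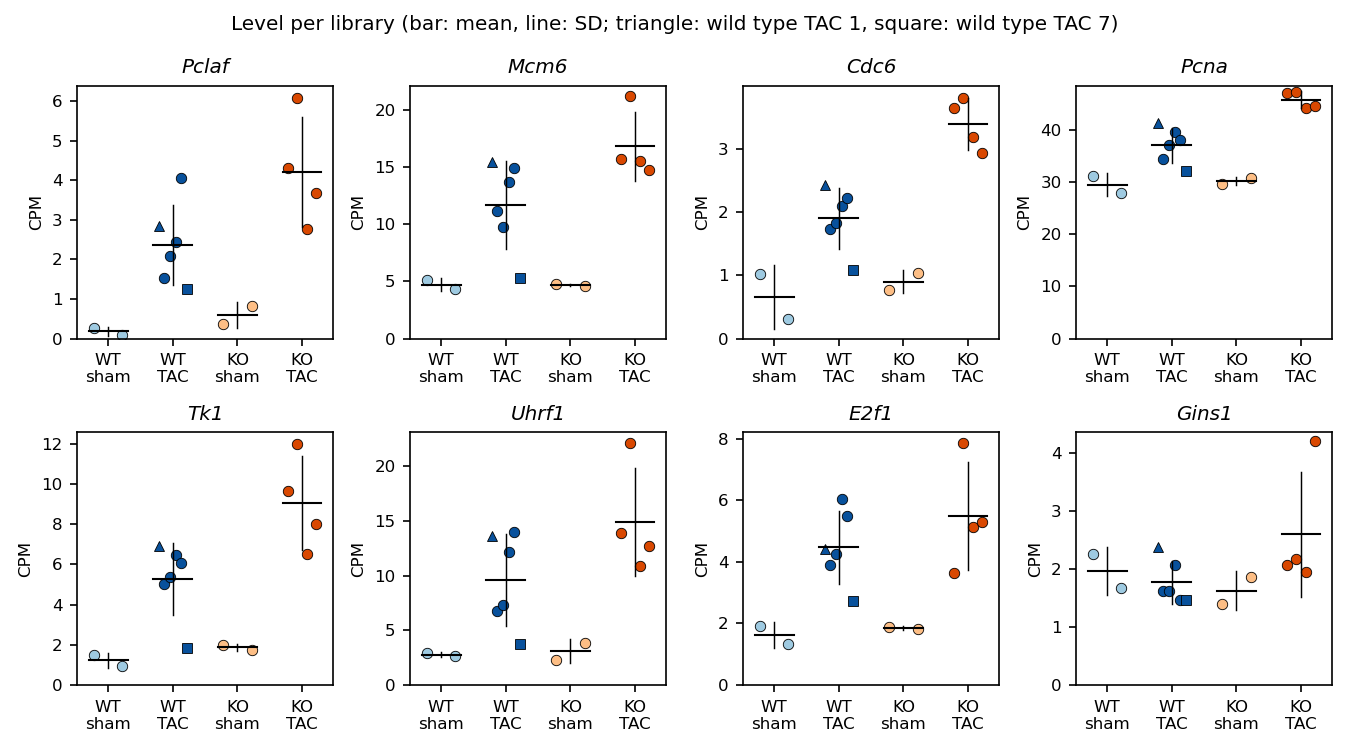
CPM per library (vertical axes, starting at 0) of 8 genes in the 4 groups (horizontal axes); horizontal bars are means and vertical lines SDs, the triangle is wild type TAC 1 and the square wild type TAC 7. For Pcna and Cdc6 the knockout TAC libraries lie above every wild type TAC library, and Gins1 shows overlapping groups in wild type mice.

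Chromatin assembly and DNA methylation are represented by 5 genes, of which 2 passed in wild type and 3 in knockout mice. Uhrf1, which brings the maintenance methyltransferase to new DNA, lay at 2.94 and 2.64 CPM in wild type sham, 3.78, 9.76 and 14 CPM in wild type TAC, 2.31 and 3.87 CPM in knockout sham and 13.9, 22.1, 10.9 and 12.7 CPM in knockout TAC. Its log2 fold change was 1.77 (SE 0.51, adjusted p = 0.042) in wild type and 2.27 (SE 0.53, adjusted p = 0.034) in knockout mice. The methyltransferase itself, Dnmt1, passed in neither (0.40, adjusted p = 0.15, and 0.57, adjusted p = 0.1), and neither did the chromatin remodeller Hells (0.80 and 1.07). Chaf1a, the large subunit of the assembly factor that places histones behind the fork, was at 3.33 and 2.74 CPM in wild type sham, 3.39, 6.42 and 7.99 CPM in wild type TAC, 3.19 and 3.67 CPM in knockout sham and 8.80, 10.7, 6.81 and 8.16 CPM in knockout TAC. It passed in both genotypes (1.05, SE 0.28, adjusted p = 0.025, and 1.33, SE 0.29, adjusted p = 0.019), and Ubxn6 covers 52.5% of its exon bases on the opposite strand. Chaf1b, the middle subunit, was at 1.02 and 0.913 CPM in wild type sham, 0.959, 2.14 and 3.31 CPM in wild type TAC, 0.565 and 1.22 CPM in knockout sham and 3.23, 4.13, 2.52 and 2.41 CPM in knockout TAC, and passed in knockout mice alone (1.16, adjusted p = 0.078, and 1.78, adjusted p = 0.035).

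Of the 6 E2F and cyclin E genes, 3 passed in wild type and 2 in knockout mice. E2f1, an activator of S phase genes, was at 1.92 and 1.32 CPM in wild type sham, 2.73, 4.34 and 6.05 CPM in wild type TAC, 1.90 and 1.81 CPM in knockout sham and 3.64, 7.87, 5.13 and 5.29 CPM in knockout TAC (1.45, SE 0.33, adjusted p = 0.016, and 1.57, SE 0.34, adjusted p = 0.021). E2f2, another activator, was at 0.682 and 1.01 CPM in wild type sham, 0.953, 1.60 and 2.41 CPM in wild type TAC, 0.822 and 0.979 CPM in knockout sham and 2.43, 3.74, 2.30 and 2.82 CPM in knockout TAC, and passed in knockout mice alone (0.86, adjusted p = 0.13, and 1.64, SE 0.38, adjusted p = 0.026). The repressor E2f8, itself an E2F target, was at 0.810 and 0.507 CPM in wild type sham, 1.40, 1.58 and 2.76 CPM in wild type TAC, 1.28 and 1.37 CPM in knockout sham and 2.34, 2.52, 2.17 and 2.47 CPM in knockout TAC. It passed in wild type mice (1.37, SE 0.32, adjusted p = 0.017) and not in knockout mice (0.83, adjusted p = 0.13). Both knockout sham libraries lay above the wild type sham libraries, but this difference did not pass (0.99, adjusted p = 0.34). Its sister repressor E2f7 passed in neither (0.55 and 1.05).

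Ccne1, a cyclin E gene, was at 1.28 and 1.01 CPM in wild type sham, 2.16, 2.42 and 3.01 CPM in wild type TAC, 1.90 and 1.37 CPM in knockout sham and 2.70, 2.13, 3.14 and 2.30 CPM in knockout TAC. The TAC libraries of both genotypes covered a similar range. It passed in wild type mice alone (1.12, SE 0.26, adjusted p = 0.016, against 0.65, SE 0.26, adjusted p = 0.16). Ccne2, the other cyclin E gene, passed in neither (0.56 and 1.11), and Ints8 covers 17.4% of its exon bases.

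Of the 2 repair genes of the list, 1 passed. Brca1, which acts in recombination and at stalled forks, was at 0.554 and 0.71 CPM in wild type sham, 1.05, 1.81 and 2.76 CPM in wild type TAC, 0.976 and 0.735 CPM in knockout sham and 2.65, 2.45, 3.18 and 3.16 CPM in knockout TAC. It passed in both genotypes (1.55, SE 0.35, adjusted p = 0.016, and 1.73, SE 0.35, adjusted p = 0.015). The nuclease Exo1 had 3 and 7 counts in wild type sham and the lowest level per exon length of the 43 genes there, 0.0287 FPKM. It was at 0.128 and 0.355 CPM in wild type sham, 0.12, 0.711 and 1.24 CPM in wild type TAC, 0.154 and 0.392 CPM in knockout sham and 1.21, 1.99, 1.33 and 0.805 CPM in knockout TAC, and passed in neither, with overlapping groups in wild type mice (1.48, SE 0.75, adjusted p = 0.19, and 2.28, SE 0.74, adjusted p = 0.092).

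Genes with a low level at rest had the larger log2 fold changes. To keep the level and the response apart, each was taken from the other genotype. Across the 43 genes, Spearman's rho was -0.73 between FPKM in wild type sham and the log2 fold change in knockout mice, and -0.72 between FPKM in knockout sham and the log2 fold change in wild type mice. All 43 points share the same libraries, so these values are a description.

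Between genotypes, the replication genes were called higher in knockout than in wild type hearts after TAC for 3 of 43, against 3.71% of all genes, and 42 of 43 were above 0 with a median log2 difference of 0.45, against -0.01 over all genes. The 3 were Pcna (0.31, SE 0.07, adjusted p = 0.021), Cdc6 (0.85, SE 0.25, adjusted p = 0.044) and E2f2 (0.88, SE 0.25, adjusted p = 0.039), whose levels are given above. An unadjusted p under 0.05 was found for 21 of 43, against 4565 of all 15876 genes tested, counting both directions. This comparison shares its TAC libraries with the comparisons of TAC and sham. The call depended on single libraries. Without wild type TAC 1, the library whose Ccl24 count goes against its label, 13 of 43 genes passed, against 8.5% of all genes, among them Mcm10, Cdc45, Rrm1, Rrm2, Tk1, Prim1, E2f7, E2f8, Brca1 and Hells. Without any 1 of knockout TAC 2, 4 or 5, 0 passed, against 1.42%, 0.978% and 0.498% of all genes. Leaving out wild type TAC 7, 2 passed, Pcna and Tk1, against 3.56% of all genes, and the median was 0.35. Without wild type TAC 3 or wild type TAC 4, 1 passed, Pcna, against 1.48% and 1.46% of all genes. The calls of Cdc6 and E2f2 were also lost without either knockout sham library, where the median was 0.44. The call of Cdc6 was also lost without wild type TAC 2, wild type TAC 6 or knockout TAC 1, and that of E2f2 without either wild type sham library. In sham hearts 0 of 43 differed between genotypes (edgeR; 2 had an unadjusted p under 0.05, and DESeq2 and limma voom also called 0), against 0.0378% of all genes called higher, with a median of 0.16.

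Groups without overlap were counted as well. All 6 wild type TAC libraries lay above both sham libraries for 21 of 43 genes, against 16.3% of all genes tested, and all 4 knockout TAC libraries above both sham libraries for 39 of 43, against 17.0%. Knockout TAC lay wholly above wild type TAC for 2 genes, Pcna and Cdc6, against 2.44% of all genes. After sham, both knockout libraries lay above both wild type libraries for 15 of 43 genes, against 4225 of all 15876 genes tested. Without wild type TAC 7 the wild type count was 39 of 43, against 17.7% of all genes. Without wild type TAC 1 the count between genotypes was 8 of 43, against 6.81% of all genes, with Cdc45, Tk1, Rfc4, E2f8, Brca1 and Hells added.

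The TAC libraries of a group differed among themselves in these genes. The mean of log2(CPM + 0.5) over the 43 genes was 1.82 and 1.64 in wild type sham and 1.80 and 1.95 in knockout sham. In the wild type TAC libraries 1, 2, 3, 4, 6 and 7 it was 2.72, 2.35, 2.36, 2.57, 2.66 and 1.92, and in knockout TAC 1, 2, 4 and 5 it was 2.74, 3.08, 2.69 and 2.76. Wild type TAC 1 was the highest of its group in 25 of 43 genes and knockout TAC 2 in 35 of 43. Wild type TAC 7 was above both sham libraries in 22 of 43 genes, against 41 or 42 for each of the other 5. The same library had the highest levels of its group of the load-induced genes Nppa (5880 CPM, against 606 to 3620 in the other 5), Nppb (1320 CPM, against 558 to 929) and Acta1 (19600 CPM, against 9290 to 16200). Of the other load-induced genes looked at, Ankrd1 was at its lowest in that library (5250 CPM, against 6060 to 8380) and Myh7 lay within the others (3460 CPM, against 2590 to 4990). Wild type TAC 1 had the lowest Nppa of the group, 606 CPM, close to the 705 and 541 CPM of wild type sham. This value also lay within the 599 to 1340 CPM of knockout TAC. In the same library Nppb (915 CPM, against 397 and 397 CPM) and Acta1 (12900 CPM, against 6280 and 7100 CPM) lay above wild type sham. So did Ankrd1 (6060 CPM, against 4420 and 4620 CPM), while Myh7 (2590 CPM) lay between the sham values of 3100 and 2420 CPM. The share of mitochondrial counts was lower after TAC in both genotypes without overlap, at 10.1 to 17.1% against 18.5 and 18.8% in sham in wild type mice and 14.9 to 19.2% against 20.5 and 23.7% in knockout mice, and wild type TAC 7 held the lowest value of the 14 libraries. The part of these values in the results was not tested.

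Genes of mitosis had larger median changes than the replication genes. Of 40 mitosis genes, 30 were called higher in wild type and 34 in knockout mice after TAC, with medians of 1.66 and 2.30, and 22 were higher in knockout than in wild type mice after TAC, with a median of 0.88. None of the 40 was lower. Of all genes tested, 6.36%, 2.36% and 3.71% were called higher in these comparisons. Cdk1, the kinase that drives entry into mitosis, had log2 fold changes of 2.36 (SE 0.39, adjusted p = 0.0064) and 2.66 (SE 0.38, adjusted p = 0.003) after TAC and of 1.07 (SE 0.23, adjusted p = 0.014) between genotypes. The spindle protein Tpx2 (1.90 and 2.90) and the cyclin Ccnb2 (2.12 and 2.44) passed in both TAC comparisons, as did Anln in wild type mice (2.06) and Prc1 in knockout mice (3.12), which act in cytokinesis. Ccnb2 (1.02), the proliferation marker Mki67 (1.04) and the securin gene Pttg1 (0.67) were also higher in knockout mice after TAC. The mean level of the mitosis list lay 0.781 to 0.872 log2 units below that of the replication list in the 4 sham libraries. In the TAC libraries it lay between 0.49 below and 0.217 above it.

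Replication genes outside the 43 had smaller median changes. Both lists were chosen with earlier results of these data known, and the part of that choice in this difference was not tested. Of 66 others, 6 were called higher and 2 lower in wild type mice, and 5 higher and 1 lower in knockout mice. The medians were 0.15 and 0.25. Of all 15876 genes tested, 6.36% and 2.36% were called higher, and 921 and 274 genes lower. The S phase cyclin Ccna2 rose in both genotypes (2.09, SE 0.45, adjusted p = 0.015, and 2.52, SE 0.45, adjusted p = 0.01). Prim2, the other primase subunit, rose in wild type mice (0.93, adjusted p = 0.025), while Tfdp2, a partner of E2F proteins, fell (-0.53, adjusted p = 0.016). In knockout mice Tcf19 (1.65), the checkpoint mediator Clspn (2.31) and the fork repair gene Mms22l (1.52) rose. Between genotypes after TAC, 6 of the 66 were higher in knockout mice and none lower, against 3.71% of all genes called higher. Among the 6 were the phosphatase Cdc25a (0.42, adjusted p = 0.027), Tcf19 (0.72), Fbxo5 (0.83) and Ccna2 (1.04).

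Of 23 genes of DNA damage signalling and recombination, 1 was called higher in wild type and 2 in knockout mice after TAC. Of all genes tested, 6.36% and 2.36% were called higher in these comparisons, and 3.71% in knockout against wild type mice after TAC. Brca2 passed in wild type mice (1.04, adjusted p = 0.038), where Blm (0.94), Rad54l (1.48) and Chek1 (0.99) did not. The replication checkpoint kinase Chek1 (2.16, adjusted p = 0.015) and Rad54b (2.76, adjusted p = 0.049) passed in knockout mice, where Fanci (1.41) did not. Between genotypes after TAC, 4 of 23 were higher in knockout mice: Fanci (1.06), Mus81 (0.26), Rad54b (1.42) and Chek2 (0.68), with a median over the list of 0.68. Of 13 p53 targets and CDK inhibitors, Cdkn2d rose in wild type mice (0.59) while Mdm2 (-0.26), Ccng1 (-0.41) and Sesn1 (-0.42) fell, and Btg2 rose in knockout mice (1.06) and was higher there than in wild type mice after TAC (0.65).

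Macrophage and fibroblast markers, from cell types that can divide in the heart, included genes that were lower in knockout than in wild type mice after TAC. Of 10 macrophage markers, 9 rose after TAC in wild type mice and 0 in knockout mice (edgeR; 6 of 10 had an unadjusted p under 0.05), where Cd163 fell, and 5 were lower in knockout than in wild type mice after TAC. The mean log2(CPM + 0.5) of this list was 4.52 to 5.27 in wild type TAC and 4.40 to 4.64 in knockout TAC, and the summed level 365 to 645 and 313 to 416 CPM. Of 10 fibroblast markers, 7 rose in wild type mice and 0 in knockout mice (6 of 10 with an unadjusted p under 0.05), and 4 were lower in knockout mice after TAC. Their summed level was 3430 to 10100 CPM in wild type TAC and 2540 to 4150 CPM in knockout TAC. None of these markers was at 0 in any library. The genotype by surgery interaction (edgeR) called 0 of 10 in each list, with 4 of 10 in each at an unadjusted p under 0.05. Of all genes tested, 6.36% were called higher after TAC in wild type and 2.36% in knockout mice. Between genotypes after TAC, 3.71% were called higher and 894 of 15876 genes lower in knockout mice. Wild type TAC 7 had the highest macrophage and fibroblast scores of all libraries (5.27 and 8.49) with the lowest replication score of the TAC libraries. Of 10 endothelial markers, 0 passed in either TAC comparison (edgeR; 0 had an unadjusted p under 0.05), and Egfl7 and Cldn5 were higher in knockout than in wild type mice after TAC. The immediate early genes, which also respond to handling of the tissue, were called higher for 3 of 12 in wild type and 8 of 12 in knockout mice. Between genotypes after TAC, 7 of 12 were higher in knockout mice and 1 lower, with a median of 0.74, and the mean log2(CPM + 0.5) of the list did not overlap (4.06 to 4.50 in knockout TAC, 3.51 to 3.91 in wild type TAC). Summed erythroid markers ranged from 175 to 272 CPM in wild type TAC and from 233 to 914 CPM in knockout TAC. The part of any of these lists in the replication result was not tested.

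**Figure D5:**
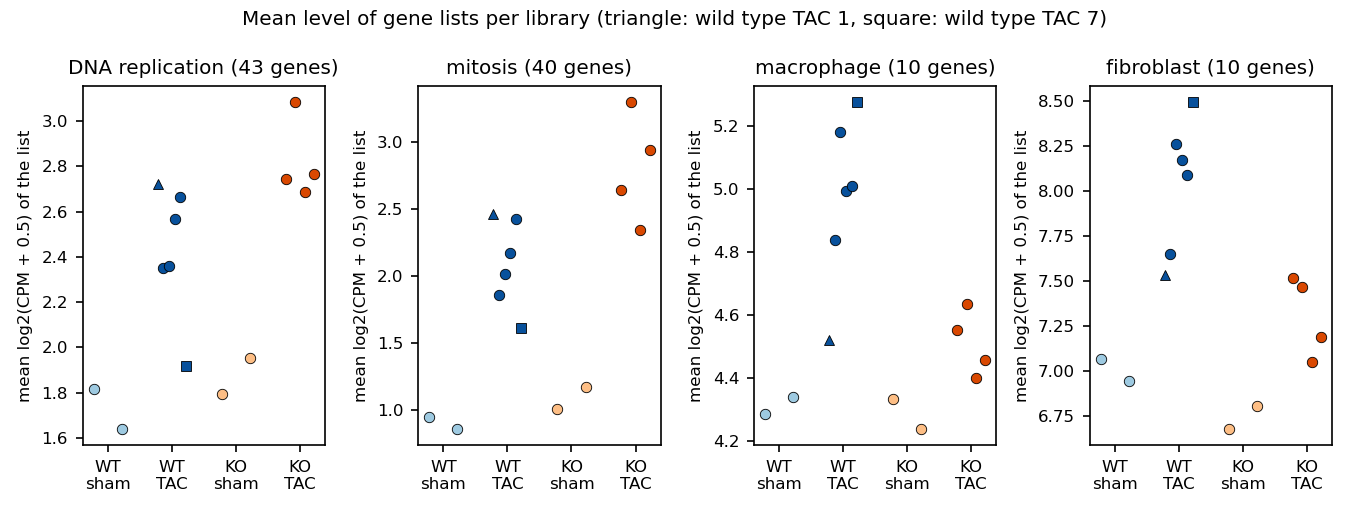
Mean log2(CPM + 0.5) of the 43 replication genes, 40 mitosis genes, 10 macrophage markers and 10 fibroblast markers (vertical axes, each with its own range) in each library of the 4 groups (horizontal axes); the triangle is wild type TAC 1 and the square wild type TAC 7. Of the 4 knockout TAC libraries, 3 lie above all wild type TAC libraries in the first list, and all 4 lie below at least 5 of the 6 in the last 2; wild type TAC 7 is the lowest wild type TAC library in the first 2 lists and the highest in the last 2.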

How the data were processed

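Polyadenylated RNA from ventricles of wild type and CCL24 knockout mice, 1 week after sham surgery or TAC, gave 14 libraries. The authors deposited raw whole-number counts per gene, and per the submitters' processing notes FastQC, HISAT2 2.1.0, featureCounts and edgeR were used on GRCm38; the sources used here do not give their settings, the annotation or strand use. The members and all gene lists were chosen with earlier results of these data known.

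From the counts, edgeR 4.0.16 (R 4.3.3) filtered genes with filterByExpr, applied TMM factors, fitted the 4 group means over all 14 libraries with glmQLFit (robust) and tested contrasts with the quasi-likelihood F test, Benjamini-Hochberg adjusted over the 15876 genes, at 0.05. The procedure was tested on simulated data. SE is the log2 fold change divided by the square root of F. CPM use TMM factors; FPKM divide them by GENCODE M21 exon lengths; list scores average log2(CPM + 0.5). Total counts were 17072262 to 33123052 per library, and a level of 3 counts marks the limit of detection, for counting error only. No pair of libraries of the same group agreed within sampling noise (chi-square per degree of freedom 4.55 to 176). Pairs from different groups were not compared in this way.

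All 43 members are named. In full are given up to 2 members per role with the smallest p in each TAC comparison and those called in 1 genotype alone; other lists are named by up to 4 smallest p per comparison. Alternatives were RLE factors, no filter, DESeq2 1.42.0, limma 3.58.1 voom with quality weights, fitting only the groups compared, a replicate block and leaving out libraries; leaving out both wild type TAC 1 and 7 was added after seeing the data. A search for clamp-binding motifs in proteins was not run.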

Additional observations from a re-analysis of the deposited data

Results flagged for a closer look

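In each group of 4 or 6 libraries the gap between the extreme library and its nearest neighbour was set against the group's range. Of 88 groups tested, 7 had a library past Dixon's 95% critical value, where chance gives about 1 in 20. In wild type TAC 7, Tk1 was low at 1.86 CPM and Pola1 at 4.88 CPM. In wild type TAC 1, Rfc4 was high at 9.91 CPM and E2f8 at 2.76 CPM. In knockout TAC 2, Mcm5 was high at 21.3 CPM and Mcm6 at 21.2 CPM. In knockout TAC 5, Gins1 was high at 4.2 CPM, against 1.94 to 2.17 CPM in the other 3 libraries of the group. Wild type TAC 1 is also the library whose Ccl24 count of 3 goes against its label. The causes were not tested.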

How the results depend on the processing

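The count of replication genes called after TAC in wild type mice (19, against 6.36% of all genes tested called higher) was 19 with RLE factors (5.98%), 16 without the filter (2.65%), 23 with DESeq2 (9.76%), 31 with limma voom (17.5%), 6 when only the 2 groups compared were fitted (2.19%) and 28 without both wild type TAC 1 and 7 (8.3%, chosen after seeing the data). Leaving out each library gave 0 to 27. In knockout mice (20, against 2.36%) the counts were 20 (2.43%), 17 (1.28%), 30 (5.21%), 28 (4.91%), 28 (5.66%) and 30 (5.93%) under the same settings, and 0 to 29 on leaving out each library. Between genotypes after TAC (3, against 3.71%) they were 4 (4.05%), 3 (1.8%), 6 (6.69%), 20 (13.7%), 2 (1.95%) and 10 (8.35%), and 0 to 13. The sham and interaction counts were 0 under every setting run.

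With the replicate number as a block the counts were 2 in wild type mice (0.0693% of all genes were called higher), 15 in knockout mice (1.63%) and 0 between genotypes after TAC (0.113%). Same-numbered libraries did not deviate together from their group means (1 of 13 pairs had r over 0.1, range -0.24 to 0.11). With 2 sham libraries per genotype, the deviations of these mirror each other. The check therefore cannot show whether same-numbered libraries share a batch or a pairing. The values that changed sign under the block were Gins1 in wild type mice (0.0407) and, between genotypes after TAC, Mcm7 (-0.0347) and Gins2 (-0.0576). Between genotypes after TAC Ccne1 was -0.0344 with limma voom and -0.0171 without wild type TAC 1 and 7, and the interaction of Cdt1 was 0.0418 with limma voom. On leaving out each library, Gins1 in wild type mice ranged from -0.36 to 0.0755, and between genotypes after TAC Ccne1 from -0.0897 to 0.119, Gins2 from -0.13 to 0.20 and Pola1 from -0.0954 to 0.0171. The interaction of Cdt1 ranged from -0.44 to 0.32. The cause was not tested. With 2 sham libraries per genotype the spread of sham is poorly known, and where 1 is left out the other is assumed to vary like the other groups. Genes with under 10 counts in a sham library (such as Pclaf, Orc1 and Exo1) have imprecise fold changes.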
